A study of Mus musculus with 9 samples.

Results

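The prostanoid synthesis enzymes and receptors are 10 genes: the cyclooxygenases Ptgs1 and Ptgs2, the terminal synthases Ptges, Ptges3, Tbxas1 and Hpgds, and the receptors Ptger2, Ptger3, Ptger4 and Ptgir. They were taken by symbol from the 23471 genes of the RNA files, and each had reads in at least 5 of the 6 RNA libraries. All cells came from the bone marrow of untreated Balb/c mice, pooled before the sort. Granulocyte-macrophage progenitors (GMP) were Lin- cells with CD34, high c-kit and CD16/32. Eosinophil progenitors (EoP), also Lin- and CD34+, had low c-kit and carried CD125, the interleukin-5 receptor alpha chain. Mature eosinophils (Eos) carried Siglec-F together with CCR3. Each cell type gave 2 RNA libraries from independent sorts and 1 library of H3K4me3, a histone mark found at the starts of active or poised genes. Whether the sorts used different mice is not said, so p-values measure only the spread between these samples.

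Prostanoids are made from arachidonic acid, which phospholipase A2 frees from membranes. A cyclooxygenase turns it into the intermediate PGH2, and the terminal synthase present in the cell decides which prostanoid follows: PGE2, PGD2, prostacyclin or thromboxane A2. They act close to where they are made, on G protein-coupled receptors. In eosinophils, PGD2 is known as an attractant and PGE2, through its receptors EP2 and EP4, as a restraining signal.

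All 10 members matched a promoter window in RefSeq (GRCm38.p6, the same assembly as the files' mm10), which runs from 250 bases before to 50 after a gene's start, 300 bases in all. The windows below belong to Tbxas1 and Ptger4, whose RNA rose most clearly; to Ptges, which had RNA but no listed H3K4me3 peak near its start; to Hpgds, whose peak was listed in GMP alone; and to Ptgs2, whose RNA differed most between replicate sorts. They lie at chr6:38918736-38919035 (plus strand), chr15:5244138-5244437 (minus), chr2:30903248-30903547 (minus), chr6:65144681-65144980 (minus) and chr1:150099781-150100080 (plus), in that order, and are written 5′ to 3′ along the gene's strand. Capitals mark matches, on either strand, to the C/EBP motif TTGCNNAA, the ETS motif GAGGAAG, the GATA letters TGATAA or their variant AGATAA, the AP-1 motif TGACTCA, the cyclic AMP response element TGACGTCA and the letters TATAAA of a TATA box.
Tbxas1: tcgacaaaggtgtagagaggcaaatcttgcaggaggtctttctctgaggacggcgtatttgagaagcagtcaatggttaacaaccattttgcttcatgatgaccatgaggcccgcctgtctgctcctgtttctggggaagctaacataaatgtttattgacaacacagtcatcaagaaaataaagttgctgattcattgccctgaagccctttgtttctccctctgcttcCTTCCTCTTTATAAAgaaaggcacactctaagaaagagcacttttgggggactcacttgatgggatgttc
Ptger4: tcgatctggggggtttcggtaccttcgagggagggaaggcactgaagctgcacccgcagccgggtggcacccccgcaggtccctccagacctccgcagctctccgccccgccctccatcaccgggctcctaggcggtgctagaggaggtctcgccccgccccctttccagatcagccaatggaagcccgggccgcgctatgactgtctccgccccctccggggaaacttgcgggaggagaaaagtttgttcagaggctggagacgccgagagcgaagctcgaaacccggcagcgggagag
Ptges: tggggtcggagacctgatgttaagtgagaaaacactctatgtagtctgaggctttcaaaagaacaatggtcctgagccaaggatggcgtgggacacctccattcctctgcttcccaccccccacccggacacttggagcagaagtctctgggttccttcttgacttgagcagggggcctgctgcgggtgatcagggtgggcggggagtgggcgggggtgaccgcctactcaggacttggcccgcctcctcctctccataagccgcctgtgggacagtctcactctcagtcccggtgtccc
Hpgds: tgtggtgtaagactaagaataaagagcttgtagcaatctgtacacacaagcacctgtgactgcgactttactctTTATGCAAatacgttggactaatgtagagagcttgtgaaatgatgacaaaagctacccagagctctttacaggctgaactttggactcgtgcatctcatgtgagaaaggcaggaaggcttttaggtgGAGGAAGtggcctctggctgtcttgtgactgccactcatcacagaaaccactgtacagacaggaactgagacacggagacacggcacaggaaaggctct
Ptgs2: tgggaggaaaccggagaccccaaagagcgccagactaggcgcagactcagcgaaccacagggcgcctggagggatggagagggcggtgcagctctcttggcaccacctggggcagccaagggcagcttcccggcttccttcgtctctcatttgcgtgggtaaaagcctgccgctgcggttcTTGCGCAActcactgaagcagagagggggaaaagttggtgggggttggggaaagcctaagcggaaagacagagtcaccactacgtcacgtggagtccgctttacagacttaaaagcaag
In the Tbxas1 window the ETS letters, on the opposite strand, begin 20 bases before the start. They adjoin a TATAAA match on that strand, which begins 13 bases before the start. It overlaps another TATAAA match on the gene's strand, which begins 11 bases before the start. The Tbxas1 window was the single member window with TATAAA. Of all 32851 RefSeq windows of this length, 13.6% hold TATAAA and 13.6% hold GAGGAAG. The ETS letters were also found in the windows of Ptgs1, Hpgds and Ptgir, 4 of 10 in all. The C/EBP letters were found in 3 of 10, those of Ptgs2, Hpgds and Ptger2, against 10.8% of all windows. TGATAA was found in the Ptger2 window alone (9.05% of all windows), and AGATAA (11.2%), TGACTCA (5.20%) and TGACGTCA (1.79%) in none. The Ptger4 and Ptges windows held none of these letters. Members differed widely in CG pairs, which numbered 46 in the Ptges3 window, 27 in Ptger3, 25 in Ptger4, 16 in Ptgs2, 10 in Ptges, 6 in both Ptgs1 and Ptgir, 5 in Hpgds, 4 in Tbxas1 and 3 in Ptger2; the median of all windows was 7, with quartiles of 3 and 20. The RefSeq start lay 356 bases upstream of the nearer of the files' Ptger4 starts and 93 bases upstream of that of Ptgs2.

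Deposited counts per library ranged from 5226653 to 12088134. Of the genes of the Eos gate, Ccr3 was at 0.894 to 34.5 CPM (counts scaled to library size) in GMP and EoP and at 2272 and 2973 CPM in Eos, while Siglec5 (Siglec-F) was at 15.5 to 18.6 in GMP, 282 and 262 in EoP and 308 and 415 in Eos. Of 6 eosinophil genes, 2 were called higher and 3 lower in Eos than in EoP. The Eos libraries also held neutrophil transcripts: 11 neutrophil genes, none of them at 0, summed to 41718 and 48235 CPM in Eos, 628 and 277 in EoP and 2151 and 770 in GMP. Of the Eos sums Retnlg alone gave 20590 and 35159 CPM, while S100a9 was at 8732 and 4392. All 11 genes were called higher in Eos than in EoP. Called higher there as well were 4 of 6 GMP genes (2 were called lower), with sums of 2582 and 3184 CPM in EoP and 14752 and 4968 in Eos, 3 of 4 B cell genes and 3 of 4 erythroid genes. The part of these lists in any Eos value below was not tested, and in these bulk libraries more RNA per cell and more cells of a type cannot be told apart. Replicates differed in 16 activation and dissociation stress genes, which summed to 632 and 3286 CPM in GMP, 5856 and 89.0 in EoP and 1426 and 5133 in Eos.

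More members were called at the step from EoP to Eos, 7 of 10, than at the step from GMP to EoP, 2 of 10. Changes are log2 fold changes on TMM-scaled counts (edgeR's quasi-likelihood test over 14324 genes with Benjamini-Hochberg adjusted p, called below 0.05), and all 10 members passed the expression filter. From GMP to EoP, 1 member was called higher and 1 lower, where 9.49% of all tested genes were called higher and 17.1% lower. From EoP to Eos, 4 members were called higher and 3 lower, against 19.1% and 17.7% of all genes. Between the ends, Eos against GMP, 2 were called higher and 3 lower, against 22.7% and 31.8% of all genes. The median log2 change of the members was -0.69, 0.91 and -0.06 in these comparisons, and -0.07, 0.02 and -0.39 over all tested genes. Each cell type's libraries serve in 2 of the 3 comparisons, so these are not independent. The balance of calls over all genes moved with the analysis: with limma on the authors' RPKM values, which changes the scale, the test and the filter together, 23.8% were called higher and 3.54% lower from GMP to EoP and 14.5% and 43.4% from EoP to Eos, and with upper quartile factors 6.63% and 19.7% from GMP to EoP.

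**Figure D1:**
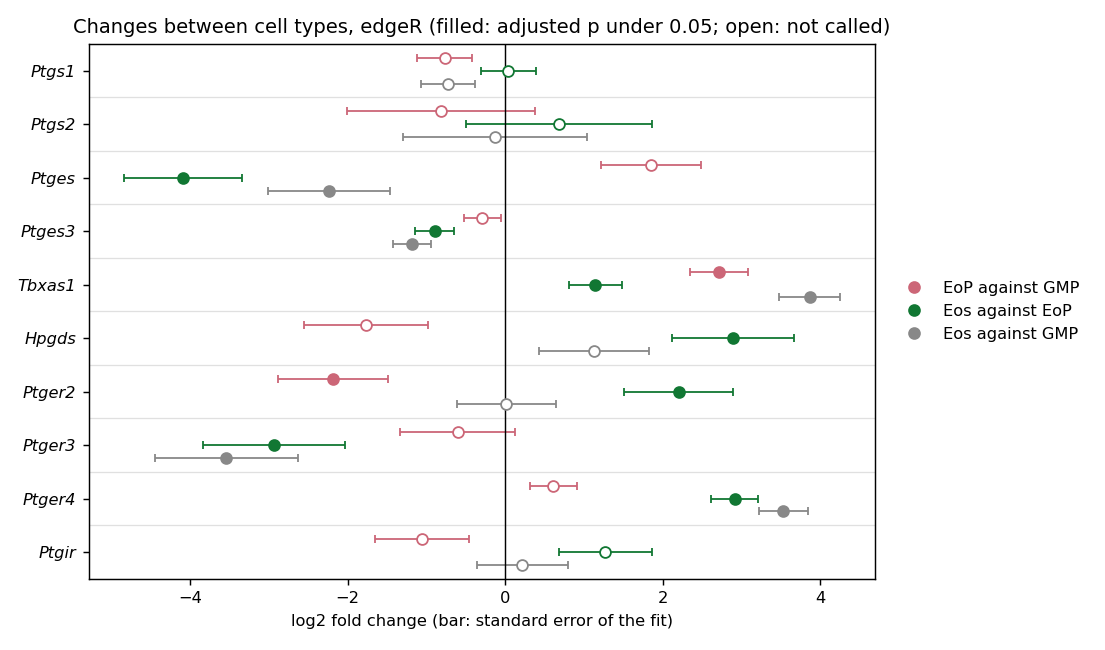
Log2 fold change of each of the 10 genes (horizontal axis) in EoP against GMP, Eos against EoP and Eos against GMP; bars are the standard error of the fit, and filled points were called at an adjusted p under 0.05. Tbxas1 lies to the right of 0 in every comparison, Ptger4 moves with a called change only in comparisons with Eos, and Ptges moves right and then 4.09 to the left.

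Ptgs1, which encodes the constitutive cyclooxygenase COX-1, was the main cyclooxygenase transcript throughout. It was at 127 and 106 CPM in GMP, 79.5 and 57.5 in EoP, and 97.3 and 43.3 in Eos. Both EoP and both Eos libraries lay below both GMP libraries, while the Eos libraries spanned those of EoP. No change was called: the log2 change was -0.77 from GMP to EoP (SE 0.35, adjusted p = 0.132), 0.04 from EoP to Eos (SE 0.35, adjusted p = 0.953) and -0.73 for Eos against GMP (SE 0.35, adjusted p = 0.097). Eos against GMP was called without Eos replicate 1 (-1.42, adjusted p = 0.00082), and also with upper quartile factors (0.0423), no filter (0.0276) or the replicate block (0.0272). EoP against GMP was called, at -0.71 to -0.79, without either Eos library (adjusted p = 0.0155 and 0.0148), with no filter (0.0348) or with only the compared groups (0.0138). Per transcript length, Ptgs1 made up 79.6% to 100% of the summed RPKM of the pair of cyclooxygenases in every library.

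Ptgs2 encodes COX-2, an immediate early gene in many leukocytes, and its level differed more between replicate sorts than between cell types. It was at 7.26 and 19.7 CPM in GMP, 15.6 and 0 in EoP, and 8.54 and 16.0 in Eos. All 3 groups overlap. EoP replicate 2 held 0 Ptgs2 counts in the deepest RNA library, which allows up to 0.257 CPM (3 counts; counting error only), whereas EoP replicate 1 held 132. Within each cell type the library with more Ptgs2 was also the one with the larger stress gene sum, and Fos, one of those genes, showed the same order, with 103 and 485 CPM in GMP, 853 and 2.91 in EoP and 72.6 and 563 in Eos. Whether these genes account for the Ptgs2 values was not tested. No Ptgs2 change was called with all 6 libraries, with log2 changes of -0.81 (SE 1.19), 0.69 (SE 1.18) and -0.13 (SE 1.17) and adjusted p of 0.66, 0.676 and 0.93. With EoP replicate 1 left out, the EoP value rests on the library with 0 counts. The EoP against GMP and Eos against EoP changes then became -5.64 and 5.54, bounds against 3 counts.

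**Figure D2:**
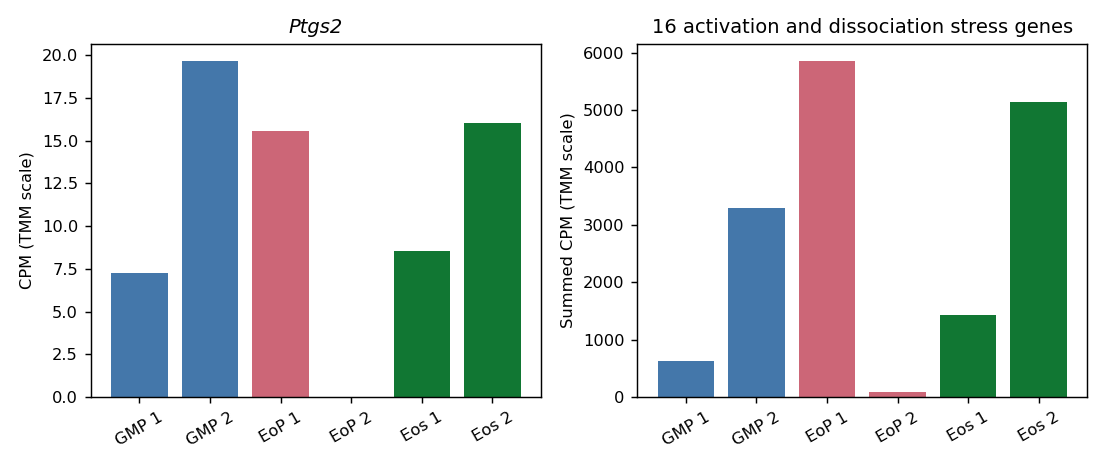
Left, Ptgs2 in CPM; right, the summed CPM of 16 activation and dissociation stress genes; bars are single RNA libraries in the same order. In GMP and Eos replicate 2 is the higher in both panels, and in EoP replicate 1 is, with Ptgs2 at 0 and the stress sum at 89.0 CPM in EoP replicate 2.

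Among the terminal synthases, Tbxas1, the thromboxane A2 synthase, rose at both steps. It stood at 7.02 and 15.5 CPM in GMP, 74.8 and 72.8 in EoP, and 127 and 199 in Eos. The cell types did not overlap, and the EoP replicates were nearly equal. The change was 6.6-fold from GMP to EoP (log2 2.72, SE 0.37, adjusted p = 0.00118) and 14.6-fold from GMP to Eos (log2 3.87, SE 0.38, adjusted p = 4.99e-05), and both calls held in all 15 alternative analyses. The step from EoP to Eos was smaller, 2.21-fold (log2 1.14, SE 0.34, adjusted p = 0.024). That call was lost without EoP replicate 1 (adjusted p = 0.0973), EoP replicate 2 (0.0943) or Eos replicate 2 (log2 0.79, adjusted p = 0.0852), and on the RPKM scale the change was 0.59 (adjusted p = 0.128). An annotated transcript on the opposite strand, 1700025N23Rik, overlaps Tbxas1, and whether reads were counted by strand was not given in the sources used here.

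Tbxas1 is also a gene of platelets and macrophages, so their markers were read beside it. A list of 8 megakaryocyte and platelet genes summed to 46.2 and 48.7 CPM in GMP, 89.9 and 122 in EoP and 34.2 and 28.3 in Eos, of which Itga2b alone gave 71.8 and 71.1 in EoP. In the same libraries Pf4, the platelet factor, was at 7.55 and 24.3 CPM in EoP and at 4.52 and 0.819 in Eos, and Gp6 was at 0 in both Eos libraries. A list of 9 monocyte and macrophage genes summed to 887 and 640 CPM in GMP, 1361 and 1286 in EoP and 1687 and 2550 in Eos. From GMP to EoP 2 of the 9 were called higher and 5 lower, and Vcam1 alone gave 1055 and 1000 CPM in EoP. In Eos 8 of the 9 were called higher and 1 lower than in EoP. Most of the Eos sum came from Emr1 (F4/80, also carried by mouse eosinophils), at 986 and 1975 CPM. Csf1r, the receptor of macrophage growth factor, was at 102 and 113 CPM in GMP, 4.72 and 14.1 in EoP and 172 and 352 in Eos. The part of either list in the Tbxas1 values was not tested.

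Both PGE2 synthases among the members, Ptges and Ptges3, fell in Eos; Ptges2, another PGE synthase, was not called against EoP (-0.15, SE 0.44, adjusted p = 0.814) or GMP (-0.66, SE 0.44, adjusted p = 0.227). Ptges, the inducible microsomal PGE synthase that works with COX-2, was highest in EoP, with 2.30 and 1.79 CPM in GMP, 6.01 and 8.83 in EoP, and 0.703 and 0.117 in Eos (7 and 1 counts). The groups did not overlap. The gain in EoP, 1.85 on the log2 scale (SE 0.64), missed the threshold (adjusted p = 0.0567), and was called without either Eos library (adjusted p = 0.0174 and 0.0178). From EoP to Eos, Ptges fell by 4.09 on the log2 scale, 17-fold (SE 0.75, adjusted p = 0.00261), and all 13 alternatives that could test it kept this call. Against GMP, Eos was lower by -2.24 (SE 0.78, adjusted p = 0.0331). That call was lost without GMP replicate 1, GMP replicate 2, EoP replicate 2 or Eos replicate 2 (log2 -1.50), and also with only the compared groups.

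Ptges3, known both as a cytosolic PGE synthase and as the HSP90 co-chaperone p23, was more abundant and changed less. Its values were 40.8 and 40.4 CPM in GMP, 37.4 and 29.1 in EoP, and 19.2 and 16.5 in Eos. Both Eos libraries lay below the other 4. The fall was -0.90 against EoP (SE 0.24, adjusted p = 0.0171), lost without EoP replicate 1 (-0.72, adjusted p = 0.161), and -1.18 against GMP (SE 0.25, adjusted p = 0.00353), which held in all 15 alternatives. The EoP value was not called different from GMP (-0.29, SE 0.24, adjusted p = 0.414).

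Hpgds, the hematopoietic PGD2 synthase found in mast cells and some lymphocytes, was low in every library. It was at 3.27 and 1.94 CPM in GMP, 0.943 and 0.600 in EoP, and 8.94 and 2.46 in Eos, with 8 and 7 counts in EoP replicates 1 and 2. EoP lay below the others, and Eos replicate 2 lay within the GMP range. Eos exceeded EoP by 2.89 on the log2 scale (SE 0.77, adjusted p = 0.0158), but this was lost without Eos replicate 1 (1.66, adjusted p = 0.153) or EoP replicate 2 (2.61, adjusted p = 0.082). The other comparisons were not called, at -1.77 for EoP against GMP (SE 0.79, adjusted p = 0.127) and 1.12 for Eos against GMP (SE 0.70, adjusted p = 0.191). A list of 10 mast cell and basophil genes ran the opposite way, with sums of 1249 and 1214 CPM in GMP, 1575 and 4344 in EoP and 255 and 128 in Eos. Its mast cell proteases Cma1, Tpsb2 and Tpsab1 were at 0 in both Eos libraries, and at 0 or 1 counts in those of EoP. Others were present in Eos, with replicate 1 the higher, as for Hpgds: Hdc at 156 and 92.5 CPM, Cpa3 at 27.7 and 10.9 and Mcpt8 at 20.9 and 5.96. Of the 7 genes of this list that were tested, 6 were called lower in Eos than in EoP and 0 higher. The sum of 4 B cell genes was, like Hpgds, higher in Eos than in EoP. It was at 31.8 and 25.5 CPM in GMP, 18.4 and 24.4 in EoP and 109 and 40.6 in Eos. Of these 4, 3 were called higher in Eos than in EoP, and the sum was higher in Eos replicate 1, as for Hpgds. Cd79b, however, was at 17.7 and 16.3 CPM in EoP and at 46.4 and 17.0 in Eos. This order was not particular to B cell genes. The sum of the 6 GMP genes was also lowest in EoP, at 2582 and 3184 CPM, and higher in Eos replicate 1, at 14752 against 4968. Of those 6, 4 were called higher and 2 lower in Eos than in EoP. The sum of 4 T and NK cell genes did not rise in both Eos libraries, at 345 and 336 CPM in EoP and 426 and 150 in Eos. Most of it was Nkg7, at 341 and 335 CPM in EoP and 398 and 114 in Eos. Of the 4, 2 were called higher in Eos than in EoP and 0 lower. Cd3d was at 4.13 and 0.857 CPM in EoP and 26.2 and 34.4 in Eos, while Cd3e was at 0.603 and 0.819 in Eos. The part of these lists in the Hpgds values was not tested.

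**Figure D3:**
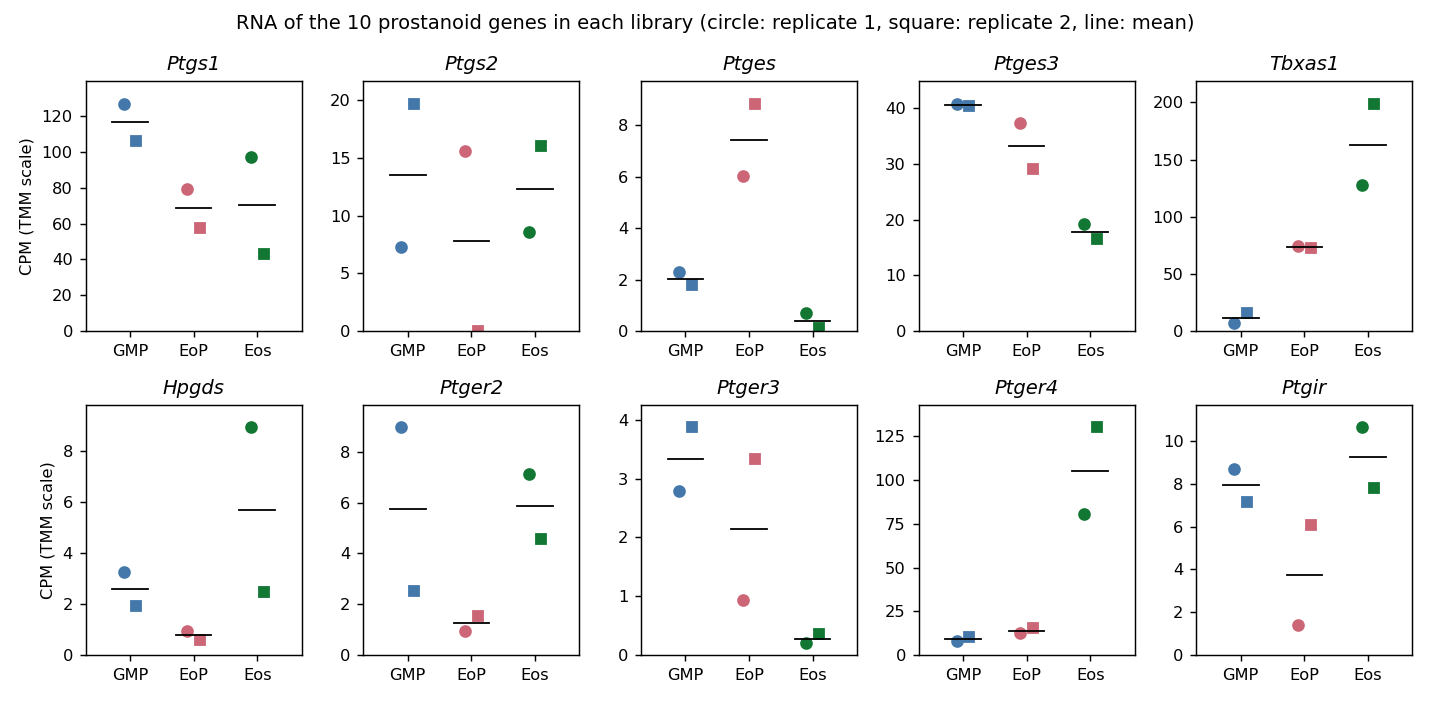
CPM on the TMM scale (vertical axes, each from 0) of the 10 genes in the GMP, EoP and Eos RNA libraries; circles are replicate 1, squares replicate 2 and lines the mean of the pair. Tbxas1 and Ptger4 are highest in both Eos libraries, Ptges in both EoP libraries, and the Ptgs2 squares and circles lie far apart within each cell type.

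Among the receptors, Ptger4 rose and Ptger3 fell in Eos. Ptger4 encodes EP4, a PGE2 receptor that raises cyclic AMP. It was at 7.99 and 10.3 CPM in GMP, 12.6 and 15.2 in EoP, and 80.5 and 130 in Eos. The 3 cell types did not overlap, and both Eos libraries were far above the rest. Ptger4 was 7.56-fold higher in Eos than in EoP (log2 2.92, SE 0.30, adjusted p = 0.000124) and 11.5-fold higher than in GMP (log2 3.53, SE 0.31, adjusted p = 2.57e-05), and both calls held in all 15 alternatives. The change from GMP to EoP was not called (0.61, SE 0.30, adjusted p = 0.162), though it passed without Eos replicate 1. Of its annotated transcripts, NM_001136079 took 78.8% and 77.6% of the gene's estimated counts in Eos, 58.9% and 57.6% in EoP, and 92.4% and 49.3% in GMP, where the gene had 66 and 69 counts. Transcripts of this gene share most of their sequence, so these shares rest on the authors' estimate.

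Ptger3 encodes EP3, a PGE2 receptor that lowers cyclic AMP. It was at 2.78 and 3.87 CPM in GMP, 0.943 and 3.34 in EoP, and 0.201 and 0.351 in Eos, which is 2 and 3 counts. Both Eos libraries lay below all others, and the EoP pair was spread too widely to differ from GMP (-0.60, SE 0.73, adjusted p = 0.586). The fall in Eos was -3.54 against GMP (SE 0.90, adjusted p = 0.00919), lost without GMP replicate 2 (adjusted p = 0.0717). Against EoP it was -2.94 (SE 0.90, adjusted p = 0.0286), and it lost the call in each fit that left out a library other than EoP replicate 1, with adjusted p from 0.0546 to 0.288 and the smallest change, -1.72, without EoP replicate 2.

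Ptger2, which encodes the other cyclic AMP-raising PGE2 receptor EP2, was lowest in EoP. It was at 8.96 and 2.53 CPM in GMP, 0.943 and 1.54 in EoP, and 7.13 and 4.56 in Eos. Eos lay within the GMP range and EoP below both. The log2 change was -2.19 from GMP to EoP (SE 0.69, adjusted p = 0.0413) and 2.20 from EoP to Eos (SE 0.69, adjusted p = 0.0306), both measured against the same EoP libraries. The fall was lost without GMP replicate 1 (-0.99), EoP replicate 1 or EoP replicate 2. It was also lost with a filter of at least 50 counts in 2 libraries (-2.27, adjusted p = 0.0627). With the replicate number as a block it was lost too (-1.96, adjusted p = 0.073). The rise was lost without EoP replicate 1 (adjusted p = 0.139), EoP replicate 2 (0.0649) or Eos replicate 1 (0.082). Eos and GMP were not called different (0.02, SE 0.63, adjusted p = 0.985).

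Ptgir, the prostacyclin receptor IP, had the same order without a call. It was at 8.71 and 7.15 CPM in GMP, 1.42 and 6.09 in EoP, and 10.6 and 7.83 in Eos. The EoP replicates differed more from each other than the higher of them did from GMP. Changes were -1.05 (SE 0.60, adjusted p = 0.227), 1.27 (SE 0.59, adjusted p = 0.117) and 0.22 (SE 0.58, adjusted p = 0.76). Without EoP replicate 2 the first became -2.30 (adjusted p = 0.0435) and the second 2.72 (adjusted p = 0.0139).

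Levels of different genes can be set side by side only per length, for which the authors' RPKM values were used. In GMP the order began with Ptgs1 (mean 13.8 RPKM) and Ptges3 (7.05), each clear of the next, and Tbxas1 followed at 1.92, overlapping Ptger4 at 1.17. In EoP Tbxas1 led at 15.6, above Ptgs1 at 9.96, Ptges3 at 7.10 and Ptger4 at 2.22, with no overlap between neighbours. In Eos Tbxas1 was at 23.9, then Ptger4 at 11.2 and Ptgs1 at 7.54, which overlapped, and Ptges3 at 2.72. The remaining 6 members reached at most 1.58 RPKM in any library, and in each cell type most neighbours among them overlapped. Among the 4 synthases, the Tbxas1 share of the summed RPKM was 13.6% and 26.5% in GMP, 64.2% and 67.7% in EoP, and 83.5% and 91.6% in Eos. Ptger4 took 31.7% and 45.6% of the summed RPKM of the 4 receptors in GMP, 80.8% and 59.6% in EoP, and 85.1% and 92.8% in Eos, while that sum went from 3.22 and 2.91 in GMP to 11.3 and 13.8 in Eos.

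**Figure D4:**
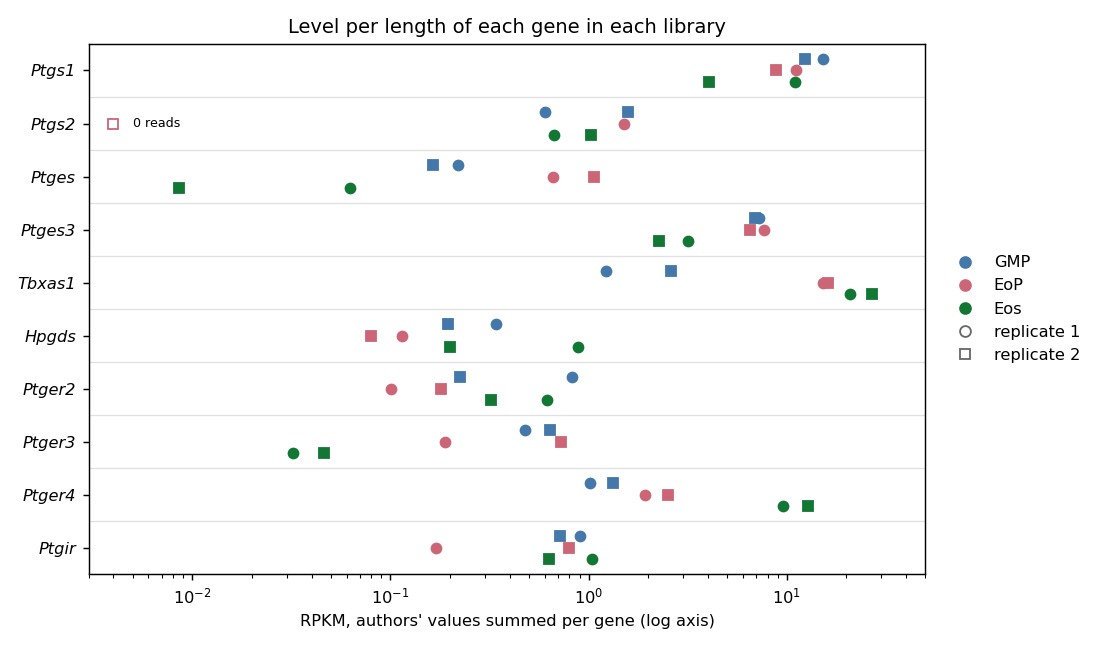
RPKM summed per gene (horizontal log axis) of the 10 genes, 1 row each; colours are cell types, circles replicate 1 and squares replicate 2, and the open square is a library with 0 Ptgs2 reads. Tbxas1 moves from 1.92 in GMP to 23.9 in Eos on average, past Ptgs1, and Ptges and Ptger3 are the lowest in Eos.

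Of 20 other genes of the pathway, 14 could be tested. From GMP to EoP 1 was called higher and 3 lower, and from EoP to Eos 4 higher and 0 lower. For Eos against GMP 4 were called higher and 4 lower. Of all tested genes, 9.49% were called higher and 17.1% lower from GMP to EoP, and 19.1% and 17.7% from EoP to Eos. For Eos against GMP these shares were 22.7% and 31.8%. The 0 from EoP to Eos was also 0 at an unadjusted p under 0.05 in edgeR and 0 with DESeq2, but 1 was called lower without Eos replicate 1, and limma on the RPKM scale called 2 higher and 3 lower there. From GMP to EoP 0 were called lower without GMP replicate 1 or EoP replicate 2, and 1 without GMP replicate 2 or EoP replicate 1. Pla2g4a, the cytosolic phospholipase A2 that frees arachidonic acid, climbed at both steps, from 36.1 and 37.1 CPM in GMP to 97.5 and 87.8 in EoP and 208 and 303 in Eos. Its changes were 1.34 (SE 0.24, adjusted p = 0.00484; 0.0667 without GMP replicate 1) and 1.46 (SE 0.24, adjusted p = 0.00147). Gpr44, the older symbol of the PGD2 receptor CRTH2 (Ptgdr2), had 0 counts in GMP, 1 in EoP, and 31 and 23 in Eos. That is at least 14.6-fold more in Eos than in GMP against a floor of 3 counts over the group (adjusted p = 0.00352), and 58.8-fold more than in EoP with a 95% counting interval of 10.1 to 2364 (adjusted p = 0.00586; 0.0509 without EoP replicate 2). Gpr44 overlaps Ccdc86 on the opposite strand, so its counts are uncertain. Ptgdr, the other PGD2 receptor, ran the opposite way, with 8 and 11 counts in GMP, 0 in EoP and 1 in Eos, at least 8.52-fold less in EoP (adjusted p = 0.0171). The Ptgdr call was lost without EoP replicate 1 (0.103) or EoP replicate 2 (0.125), with the replicate block (0.0662) and with the DESeq2 Wald test (0.0541).

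Hpgd, which inactivates prostaglandins, was at 7.53 and 1.75 CPM in Eos, 0 and 0.686 in EoP and 0.363 and 0.894 in GMP. It was called higher in Eos than in EoP (3.59, SE 1.11, adjusted p = 0.0296), but not without Eos replicate 1 (2.19, adjusted p = 0.21) or EoP replicate 1 (adjusted p = 0.112). Against GMP the Hpgd call (2.90, SE 1.09, adjusted p = 0.0455) was lost without GMP replicate 1, GMP replicate 2 or Eos replicate 1 (1.50). It was also lost with upper quartile factors and with the replicate block. Ptgr1, whose enzyme acts on prostaglandins and leukotriene B4, was at 120 and 108 CPM in GMP, 34.3 and 24.9 in EoP and 64.5 and 26.1 in Eos. Its falls from GMP were -1.95 to EoP (SE 0.38, adjusted p = 0.00682; 0.0617 without GMP replicate 1, 0.0639 leaving out EoP replicate 2) and -1.33 to Eos (SE 0.37, adjusted p = 0.0134; 0.0767 and 0.0738 without either GMP library). Akr1c18, a steroid and prostaglandin reductase, had 21 and 10 counts in GMP, 0 in EoP and 2 in Eos, and was called lower in both. The EoP call was lost without GMP replicate 2 or either EoP library. The Eos call was lost without GMP replicate 2 or Eos replicate 2, and with the DESeq2 Wald test. The transporter Abcc4 was called lower in Eos than in GMP by -0.66 (SE 0.23, adjusted p = 0.0358), a call that only 6 of 15 alternatives kept; it was -0.38 (adjusted p = 0.36) without GMP replicate 2. Without GMP replicate 1 or without GMP replicate 2, 0 of these other pathway genes were called lower in Eos than in GMP. The thromboxane receptor Tbxa2r had too few counts to test, with 0 and 4 in GMP, 0 and 21 in EoP and 1 and 1 in Eos. The prostacyclin synthase Ptgis had 3 counts or fewer in every library, and Akr1b3 is listed at 0 in all 6. Akr1b3 overlaps Gm6644 on the same strand, so its counts are uncertain.

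The genes with the profile most like each called member were found by the root-mean-square difference of centred log2 CPM over the 6 libraries. For Ptger4 they were Pi16 (0.078) and Zswim6 (0.11), and for Ptges3 Adh5 (0.06) and Naca (0.065), a ribosome-associated chaperone subunit. Tbxas1 was nearest to Fcgr3 (0.24), an Fc gamma receptor, and Syne2 (0.25). Ptger2 was nearest to Gimap7 (0.12) and Zfp948 (0.23). Ptger3 was nearest to Lpar1 (0.22) and Gm17769 (0.28), Ptges to Abca8b (0.25) and Fads2 (0.27), and Hpgds to Cd83 (0.35) and Spic (0.37). The genes named are the closest of 14324 genes over 6 libraries of 3 cell types, and no p is given for such a search.

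H3K4me3 was listed at the promoters of most members in all 3 cell types, in the authors' peak lists of 30645 peaks in GMP, 19816 in EoP and 33847 in Eos. A promoter peak was listed for 8 of 10 members in GMP, 7 in EoP and 6 in Eos, where 81.4%, 74.1% and 76.2% of the genes tested by RNA had one. With 1 library a cell type, unknown read depth and lists of unequal length, these are descriptions with no test. Ptgs1, Ptgs2, Ptges3, Tbxas1, Ptger2 and Ptger4 had a promoter peak in every list. Hpgds had one in GMP only, and Ptger3 in GMP and EoP only. No peak of Ptges or Ptgir was annotated as promoter in any list. At a stricter −log10 q of at least 4.35, the promoter peaks of Hpgds in GMP, of Tbxas1 and Ptger3 in EoP and of Ptgs2 in Eos were not kept.

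At Ptges3 the promoter peaks covered 1690 bases in GMP and 1430 in EoP, the most of any member there, and 1425 in Eos, where those of Ptger4 covered 1504, and in EoP the best Ptges3 peak ranked 609 of 19816. Ptger4 held 4, 4 and 3 promoter peaks covering 1504, 1305 and 1504 bases, which included 186, 86 and 170 bases of the window printed above. Its RNA rose in Eos while the covered length there equalled that in GMP. Tbxas1 was marked in GMP already, where its RNA was lowest: its GMP peaks ran from 189 to 576 and from 768 to 1217 bases after the start, the EoP peak from 25 to 773 and the Eos peak from 56 to 770. All of these lay downstream of the start, so they covered none of the printed window except 25 bases of it in EoP. The Ptger2 peaks also lay downstream, beginning 475 bases after the start in GMP, 617 in EoP and 826 in Eos.

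At Ptgs2 a peak lay from 339 bases before to 75 after the files' start in GMP, and wholly upstream in EoP (330 to 116 bases before) and Eos (260 to 46 before). The Ptgs2 peaks are annotated jointly with 7530420F21Rik, so they cannot be given to either alone. They covered 296, 215 and 215 bases of the printed window in GMP, EoP and Eos. The EoP peak comes from the H3K4me3 library, which is separate from the EoP RNA library that had 0 Ptgs2 reads. Hpgds had its GMP peak from 231 bases before to 46 after the start, over 278 bases of the printed window, with another from 103 to 191 bases after it; the best ranked 22346 of 30645. Eos, with more Hpgds RNA than EoP, had no listed peak there. For Ptger3 the GMP peak spanned 1041 bases and the EoP peak 250, and in Eos, where RNA was lowest, no listed peak of the gene lay nearer than 53072 bases. Ptges had no peak in the GMP or EoP list, and in Eos 1 intergenic peak 20091 bases after the start, beyond the gene's end. Ptgir had 2 short intron peaks in GMP, 1414 to 1656 bases after the start, and none elsewhere.

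**Figure D5:**
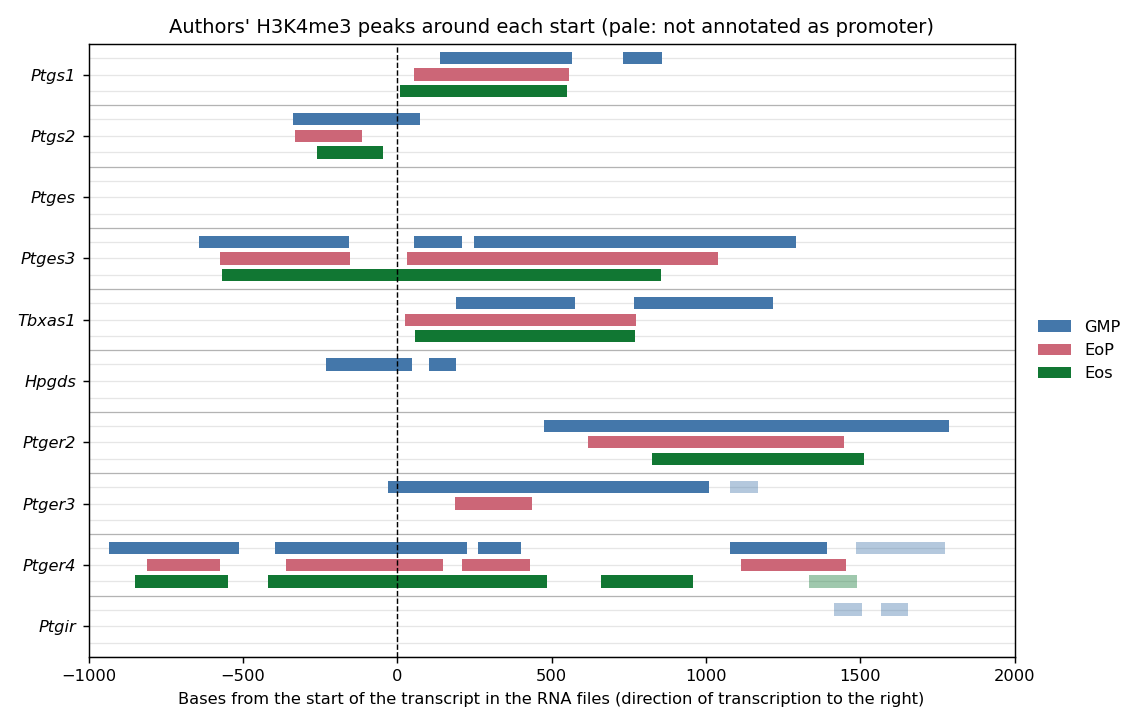
The authors' H3K4me3 peaks within 1000 bases before and 2000 after the files' start of each gene (dashed line; the outermost start for Ptger4), drawn along the direction of transcription, 1 lane per cell type; pale bars are not annotated as promoter. Ptges has no peak in this range, Hpgds only in GMP, and the Tbxas1 and Ptger2 peaks begin after the start.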

How the data were processed

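RNA was measured in 6 libraries and H3K4me3 in 3, grouped by their titles. The RNA files list, per RefSeq transcript, the authors' estimated count and RPKM, per the file headers; the submitters' processing notes name STAR 2.4.0c, Bowtie 1.0.0 and mm10, and the counting tool was not given in the sources used here. Counts and RPKM were summed per gene symbol over 23471 genes. Totals per library ranged from 5226653 to 12088134 counts. The deposited peak lists, 1 per library, hold, per the file headers, the pileup signal at each summit, −log10 values of p and q, and a fold enrichment; caller and control were not given in the sources used here. A promoter peak is one the authors annotated as promoter; distances were computed from transcript starts, since the files have no distance column, and coordinates are 1-based.

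Counts were tested in R 4.3.3 with edgeR 4.0.16 (quasi-likelihood, TMM, default filter, 3 residual degrees of freedom). All 6 libraries were in 1 fit on cell type alone, with Benjamini-Hochberg adjustment over 14324 genes. Standard errors are the log2 change over the root of the F value. For a group with 0 counts a fold is a bound against 3 counts over the group; with 1 to 3 counts it is a ratio with an exact 95% interval. Alternatives were DESeq2 1.42.0 and its size factors, upper quartile factors, other filters, a replicate block, limma 3.58.1 on log2(RPKM + 0.5) or log2(RPKM + 0.1), genes reaching 1 RPKM in fewer than 2 libraries left out, the compared groups alone, and each library left out. The scripts were tested on simulated data. All 10 members are named, with the called genes, except 1 that is not reported here, of a list of 20 other pathway genes and the 2 nearest profiles of each called member. Members, lists and motifs were chosen with earlier results of these data known. No protein sequence and no ratio of H3K4me3 between lists was used here.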

Additional observations from a re-analysis of the deposited data

How the results depend on the processing

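These calls held under every alternative that could test them: Tbxas1 for EoP against GMP, Ptger4 and Ptges for Eos against EoP, and Tbxas1, Ptger4 and Ptges3 for Eos against GMP. For EoP against GMP, 2 members were called higher and 2 lower with no filter or with only the compared groups; 0 were called lower with at least 50 counts in 2 libraries, with the replicate block or on the RPKM scale at either pseudocount. With a library left out, 1 to 3 were higher and 0 to 2 lower, while the share of all genes called fell to between 2.96% and 5.98% higher and 2.18% and 4.48% lower without a GMP or EoP library. For Eos against EoP, limma on RPKM, at either pseudocount, called 1 higher and 1 lower, and leaving out a library gave 2 to 4 higher. For Eos against GMP, RPKM gave 1 lower at either pseudocount, and leaving out a library 1 to 4. The RPKM fits tested only genes of at least 1 RPKM in 2 libraries, and other causes of these moves were not tested.

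Every result that changed sign was one not called to begin with. For EoP against GMP, Ptges3 was 0.00485 and 0.0049 on log2(RPKM + 0.5) and log2(RPKM + 0.1), and with a library left out ran from -0.45 to 0.0601; Ptgs2 ran from -5.64 (a bound, with 0 EoP counts left) to 0.40 and Ptger3 from -1.62 to 0.0416. For Eos against EoP, Ptgs1 was -0.00164 with upper quartile factors, -0.0337 with the replicate block, -0.52 and -0.56 on the RPKM scales and -0.68 to 0.51 with a library left out, and Ptgs2 ran from -0.32 to 5.54 (a bound). For Eos against GMP, Ptger2 was -0.21 with upper quartile factors and -0.0276 with at least 50 counts, Ptgir -0.00670 with upper quartile factors, and Ptgs2 0.0119 with only the compared groups; with a library left out Ptgs2 ran from -0.68 to 0.91, Hpgds from -0.0786 to 1.79, Ptger2 from -0.45 to 1.21 and Ptgir from -0.00719 to 0.45. Upper quartile factors moved the median of all genes by -0.18 (EoP against GMP) and -0.23 (Eos against GMP), DESeq2 size factors by 0.11 for Eos against EoP, and RPKM with a pseudocount of 0.5 by 0.24, -0.42 and -0.17 in the 3 comparisons.

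Replicate numbers did not pair the samples: differences between replicates 1 and 2 correlated across genes at -0.10 (GMP and EoP), 0.02 (GMP and Eos) and -0.08 (EoP and Eos). The replicate block ended the Ptger2 call for EoP against GMP and brought Ptgs1 for Eos against GMP past the threshold (-0.82, adjusted p = 0.0272). Among the other pathway genes it ended the Ptgdr calls (adjusted p = 0.0662 for EoP and 0.0719 for Eos against GMP) and those of Hpgd (0.0687) and Abcc4 (0.051) for Eos against GMP. Members with a promoter peak numbered 7, 7 and 5 (GMP, EoP, Eos) among the 19816 top-ranked peaks, 7, 5 and 5 at a −log10 q of at least 4.35, 8, 7 and 6 within 1000 bases of a start and 9, 7 and 6 within 3000. Counts under 10 limit Hpgds in both EoP libraries, Ptger2 and Ptger3 in EoP replicate 1, and Ptges and Ptger3 in both Eos libraries. They also limit Ptgs2 in EoP replicate 2, which had 0 counts.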
